A study of Mus musculus with 20 samples.

Results

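The rows described here carry the symbols Pcsk7, Tmem252, Itga7 and Cavin1, which are 4 of the 46329 gene rows in each count file of a mouse colorectal tumor study. They were chosen by name, as rows that lie opposite, next to or among genes of muscle, and with the difference between tumors and tissue beside tumors already seen, so that difference is given as a description without a test. RNA was sequenced from 5 libraries in each of 4 groups of C57BL/6J mice at 100 days of age. Erbb2-deficient animals carried ApcMin/+, Erbb2f/f and Tg(Vil1-cre). Their control littermates carried ApcMin/+ and Erbb2f/f without cre, and are labelled WT in the genotype field although both genotypes hold the Min allele and the floxed Erbb2tm1Mll allele. The order of groups below is Erbb2-deficient tumors, control tumors, Erbb2-deficient adjacent tissue and control adjacent tissue, where adjacent tissue is labelled as epithelium outside a tumor. The Vil1 promoter drives cre in intestinal epithelium, so smooth muscle cells are not its target, and the transgene itself is a further difference of the genotypes. Nothing in the labels says that equal replicate numbers mark the same animal, and the spread behind each p-value is that between libraries.

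Smooth muscle shortens through actin and myosin filaments tied to the membrane at adhesion plaques, and its cells are rich in caveolae, small pits of the plasma membrane. Tagln encodes transgelin (SM22 alpha), an actin-binding protein that marks smooth muscle. Pgm5 encodes aciculin, a protein related to phosphoglucomutase that sits at muscle adhesion sites. Itga7 encodes an integrin subunit that binds laminin in muscle, and Cavin1 a coat protein without which caveolae do not form. Pcsk7 itself is no muscle gene: it encodes a proprotein convertase, an enzyme that cuts precursor proteins in the secretory pathway. The wall of the colon holds circular and longitudinal smooth muscle below the mucosa and a thin muscle layer within it, so a piece of tissue taken beside a tumor can hold muscle with its epithelium.

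A symbol here names a row of counts, not a measured transcript. Libraries held 1071737 to 1944309 counts on gene rows, or 2.51% to 3.45% of all reads listed, while 78.6% to 85.1% fell on no counted feature. The library kit keeps strand, and the strand setting of the counting is not given in the sources used here. ND6 lies on the other strand of the mitochondrial genome than the remaining 12 protein genes, and its row (22599 to 199495 counts) exceeded their sum (884 to 5698 counts) in 20 of 20 libraries. Rows counted on the opposite strand would show this order, so a row may hold reads of the gene opposite it. For Pcsk7 and Tmem252 that may be the muscle gene beside them, which was not tested. Within a row, reads of its gene and reads of a gene on the opposite strand cannot be told apart. In GENCODE M21, which is of another build than the counts and was used only for which genes neighbour each other, the exons of Pcsk7 on chromosome 9 overlap exons of Tagln and of Rnf214, both on the opposite strand. The exons of Itga7 on chromosome 10 overlap an exon of Mettl7b on the opposite strand. Tmem252 on chromosome 19 faces Pgm5, whose span overlaps that of Tmem252 in the RefSeq table and does not in GENCODE. Cavin1 on chromosome 11 has no other listed gene within 10000 bases in either table, so no listed muscle gene stands beside it.

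Promoters are shown from RefSeq (GRCm38.p6), from 250 bases before to 50 bases after the start of the gene. They are those of Pcsk7 and Tmem252, whose rows had lower means in tumors, and of Pgm5, whose row did not. Capitals mark the letters TATAA where they occur. The windows are chr9:45906319-45906618 on the plus strand for Pcsk7, chr19:24673758-24674057 on the plus strand for Tmem252 and chr19:24861793-24862092 on the minus strand for Pgm5. No sequence of the Tagln or Itga7 promoter is shown.
Pcsk7: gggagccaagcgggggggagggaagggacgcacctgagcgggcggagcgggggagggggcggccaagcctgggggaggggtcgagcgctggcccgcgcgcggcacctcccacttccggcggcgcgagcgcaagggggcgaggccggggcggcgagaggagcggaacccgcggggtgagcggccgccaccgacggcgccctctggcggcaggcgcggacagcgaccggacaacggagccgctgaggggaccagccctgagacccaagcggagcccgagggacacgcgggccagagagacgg
Tmem252: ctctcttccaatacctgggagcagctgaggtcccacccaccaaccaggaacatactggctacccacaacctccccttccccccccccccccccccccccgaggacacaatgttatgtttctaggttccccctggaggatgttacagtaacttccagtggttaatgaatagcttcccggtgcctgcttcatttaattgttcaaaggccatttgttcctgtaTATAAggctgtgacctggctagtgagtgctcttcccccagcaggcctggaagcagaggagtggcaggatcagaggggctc
Pgm5: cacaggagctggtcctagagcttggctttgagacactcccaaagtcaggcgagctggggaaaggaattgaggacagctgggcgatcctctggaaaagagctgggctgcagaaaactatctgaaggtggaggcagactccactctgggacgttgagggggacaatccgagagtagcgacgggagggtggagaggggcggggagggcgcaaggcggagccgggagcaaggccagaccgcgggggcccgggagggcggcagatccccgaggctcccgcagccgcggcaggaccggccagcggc
Each window was searched on both strands for the CArG box, the element bound by serum response factor in muscle genes, and for TATAA and CATTCC. The letters TATAA are in the Tmem252 window and not in the Pcsk7 or Pgm5 window, and 24.9% of 32851 RefSeq promoters of the same length hold them. No CArG box was found in these 3 windows, and 1.63% of all promoters hold one. The Cavin1 window holds CATTCC, found in 14.7% of all promoters. GC content was 78.7% in the Pcsk7 window, 55.3% in the Tmem252 window and 66.3% in the Pgm5 window.

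The Pcsk7 row was among the most heavily counted rows of the study. By total counts over the 20 libraries, not corrected for gene length, it ranked 4 of 46329 rows, and 3 in adjacent tissue alone. The Tmem252 row ranked 289, the Itga7 row 4345 and the Cavin1 row 4684. All 4 rows were among the 7119 that passed the filter on low counts. Levels below are CPM (counts scaled to a common total over tested rows, after TMM scaling), given for libraries 1 to 5 of a group.

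In Erbb2-deficient tumors the Pcsk7 row had 1857, 2857, 600, 1706 and 1120 CPM, and in control tumors 2694, 1393, 2718, 2986 and 2163 CPM. In Erbb2-deficient adjacent tissue it had 19340, 20177, 33321, 28447 and 21626 CPM, and in control adjacent tissue 61836, 56514, 36579, 50743 and 40146 CPM. Every tumor lay below every adjacent library of both genotypes, and the 5 Erbb2-deficient adjacent libraries all lay below the 5 control adjacent libraries. This single row took 0.0654% to 0.305% of gene counts in Erbb2-deficient tumors and 0.129% to 0.276% in control tumors. It took 1.71% to 3.33% in Erbb2-deficient adjacent tissue and 3.30% to 5.59% in control adjacent tissue.

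In Erbb2-deficient tumors the Tmem252 row had 17.4, 24.6, 18.2, 6.70 and 6.48 CPM, and in control tumors 15.4, 2.72, 27.6, 12.4 and 5.08 CPM. In Erbb2-deficient adjacent tissue it had 861, 857, 1133, 1089 and 827 CPM, and in control adjacent tissue 2110, 1931, 1161, 1942 and 1325 CPM. The order of the groups was the same as for the Pcsk7 row in adjacent tissue, while the tumors of the 2 genotypes overlapped throughout. Counts in tumors were few, at 9 to 33 per Erbb2-deficient library and 3 to 30 per control library.

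In Erbb2-deficient tumors the Itga7 row had 0, 0, 0.698, 0.744 and 1.44 CPM, which is 4 counts over the group, and in control tumors 2.79, 0, 35.0, 2.86 and 1.69 CPM. In Erbb2-deficient adjacent tissue it had 19.8, 22.4, 11.1, 45.4 and 21.8 CPM, and in control adjacent tissue 16.8, 5.88, 45.9, 40.3 and 35.6 CPM. Control tumor 3 held 38 of the 47 counts of its group and sat among the adjacent libraries, while the other 9 tumors lay below every adjacent library.

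In Erbb2-deficient tumors the Cavin1 row had 19.6, 18.7, 21.6, 17.9 and 8.65 CPM, and in control tumors 12.6, 7.26, 7.36, 12.4 and 10.2 CPM. In Erbb2-deficient adjacent tissue it had 5.82, 4.99, 14.3, 12.1 and 5.29 CPM, and in control adjacent tissue 20.7, 26.0, 16.1, 10.8 and 11.6 CPM. The groups overlapped, and the high groups were Erbb2-deficient tumors and control adjacent tissue. These levels rest on 6 to 31 counts per library.

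**Figure D1:**
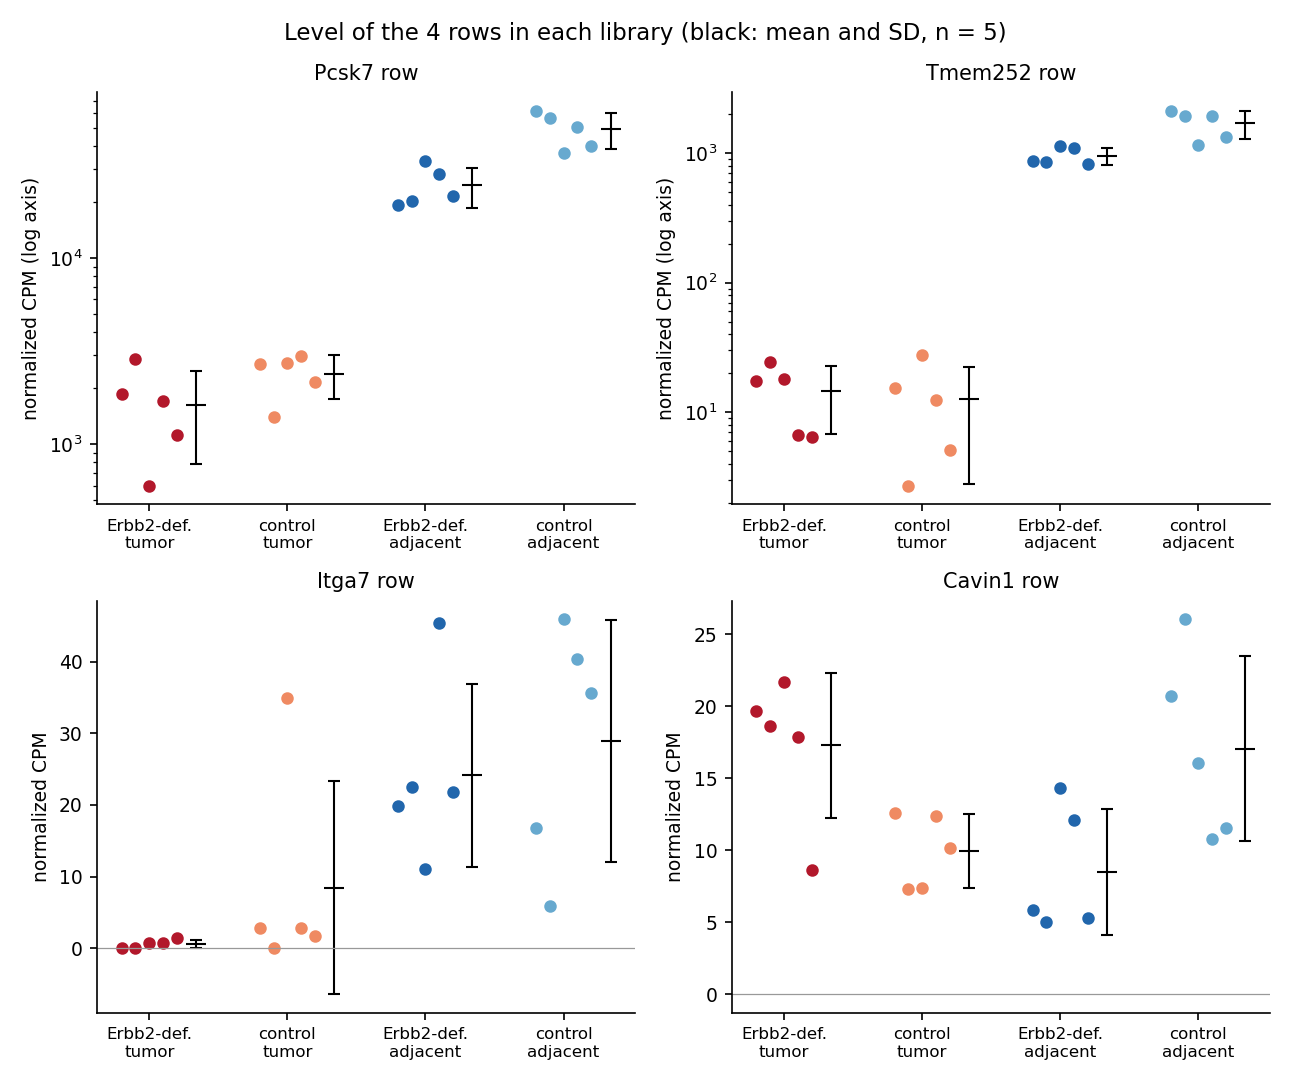
Normalized CPM of the Pcsk7, Tmem252, Itga7 and Cavin1 rows in each of the 20 libraries by group, with the mean and SD (n = 5) in black beside the points; the axes of the Pcsk7 and Tmem252 panels are logarithmic and those of the other panels linear. Tumors sit far below adjacent tissue in the upper panels, control tumor 3 stands at 35.0 CPM in the Itga7 panel, and no such split is seen for Cavin1.

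Between tumors and adjacent tissue the 4 rows did not move alike. The Pcsk7 row was 15.1-fold lower in tumors of Erbb2-deficient mice, at 1628 ± 849 CPM in tumors and 24582 ± 6061 CPM in adjacent tissue (SD, n = 5 each), and 20.6-fold lower in tumors of control mice, at 2391 ± 633 CPM in tumors and 49164 ± 10686 CPM in adjacent tissue. The Tmem252 row was 64.6-fold lower in Erbb2-deficient tumors than in adjacent tissue of that genotype, and 133-fold lower in control tumors. On the log2 scale the fitted differences were -3.92 ± 0.33 SE and -4.36 ± 0.34 SE for Pcsk7, and -6.01 ± 0.48 SE and -7.06 ± 0.50 SE for Tmem252, with the Erbb2-deficient value first.

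The Itga7 row differed by -5.15 ± 1.03 SE in Erbb2-deficient mice and by -1.79 ± 0.76 SE in control mice, and the control value was -3.88 without control tumor 3. Cavin1 had no common direction, with 1.03 ± 0.36 SE in Erbb2-deficient mice and -0.77 ± 0.36 SE in control mice. Tumor and adjacent libraries did not overlap for 3 of the 4 rows in Erbb2-deficient mice (Pcsk7, Tmem252 and Itga7), where 13.6% of all tested rows were lower without overlap and 11.9% higher. In control mice they did not overlap for 2 of the 4 (Pcsk7 and Tmem252), where 6.66% of all tested rows were lower without overlap and 3.96% higher. Nothing is read from these counts, since this contrast chose the rows. The naming rule of an earlier analysis of these files picks Tmem252 in both genotypes and Itga7 in Erbb2-deficient mice by the size of their difference, and Cavin1 by its interaction, and does not pick Pcsk7.

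The Tagln and Pgm5 rows, opposite Pcsk7 and beside Tmem252, carried smaller fitted differences than those rows. The Tagln row had 199, 182, 151, 205 and 228 CPM in Erbb2-deficient tumors, against 481, 512, 399, 380 and 441 CPM in Erbb2-deficient adjacent tissue. In control tumors it had 187, 143, 482, 201 and 152 CPM, against 439, 406, 642, 404 and 430 CPM in control adjacent tissue. Tagln was lower in tumors of both genotypes, with a log2 difference of -1.20 ± 0.27 SE in Erbb2-deficient mice (edgeR adjusted p = 0.00259) and -1.0 ± 0.27 SE in control mice (edgeR adjusted p = 0.0114). In the same contrasts edgeR called 27.5% of all tested rows in Erbb2-deficient mice, 13.0% higher and 14.5% lower in tumors, and 21.6% in control mice, 10.7% higher and 10.9% lower. Control tumor 3 was the highest tumor in the Tagln row, as it was in the Itga7 row, and it was not apart from the other control tumors in the Pcsk7 row.

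The Rnf214 row, opposite the other end of Pcsk7 and naming a RING finger protein, ran the other way. It averaged 1246 ± 352 CPM in Erbb2-deficient tumors and 557 ± 70.8 CPM in Erbb2-deficient adjacent tissue (edgeR adjusted p = 0.0125), and 1200 ± 609 CPM in control tumors and 706 ± 118 CPM in control adjacent tissue (edgeR adjusted p = 0.101, SD, n = 5 each). Control tumor 2 was the lowest library of the Rnf214 row, at 254 CPM. The Sidt2 row, whose gene lies near Pcsk7 without overlapping it, averaged between 16.6 and 17.0 CPM in all 4 groups.

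The Pgm5 row had 43.1, 47.7, 8.38, 40.2 and 26.7 CPM in Erbb2-deficient tumors, against 20.4, 23.3, 20.6, 7.57 and 11.9 CPM in Erbb2-deficient adjacent tissue. In control tumors it had 18.1, 13.6, 26.7, 31.4 and 16.1 CPM, against 13.8, 16.8, 41.3, 12.5 and 10.7 CPM in control adjacent tissue. Neither difference passed the edgeR test, with log2 values of 0.98 ± 0.44 SE in Erbb2-deficient mice (edgeR adjusted p = 0.102) and 0.14 ± 0.45 SE in control mice (edgeR adjusted p = 0.856). The mean of the Tmem252 row was thus lower in tumors of both genotypes, while that of the Pgm5 row was not. If rows were counted on the opposite strand, the Pgm5 row would not measure the Pgm5 transcript. Mettl7b, a gene for a methyltransferase and the partner of Itga7, did not pass the filter on low counts. Its row held 2 counts over the 5 Erbb2-deficient tumors and 31 over the 5 Erbb2-deficient adjacent libraries. It held 6 counts over the 5 control tumors, all in control tumor 3, and 25 over the 5 control adjacent libraries.

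The ratio of counts in the Pcsk7 row to counts in the Tagln row, which is not corrected for length and serves to compare libraries, had a median of 8.33 in Erbb2-deficient tumors (3.98 to 15.7) and 49.0 in Erbb2-deficient adjacent tissue (39.4 to 83.5). In control mice its median was 14.3 in tumors (5.64 to 14.9) and 125.5 in adjacent tissue (57.0 to 140.8). The ratio of Tmem252 to Pgm5 counts had a median of 0.404 in Erbb2-deficient tumors (0.167 to 2.17) and 54.9 in Erbb2-deficient adjacent tissue (36.8 to 144). In control mice it was 0.394 in tumors (0.200 to 1.03) and 124 in adjacent tissue (28.1 to 155). Tumor and adjacent libraries did not overlap in either ratio in either genotype. Nothing is read from that separation, since the Pcsk7 and Tmem252 rows were chosen with their tissue difference already seen.

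**Figure D2:**
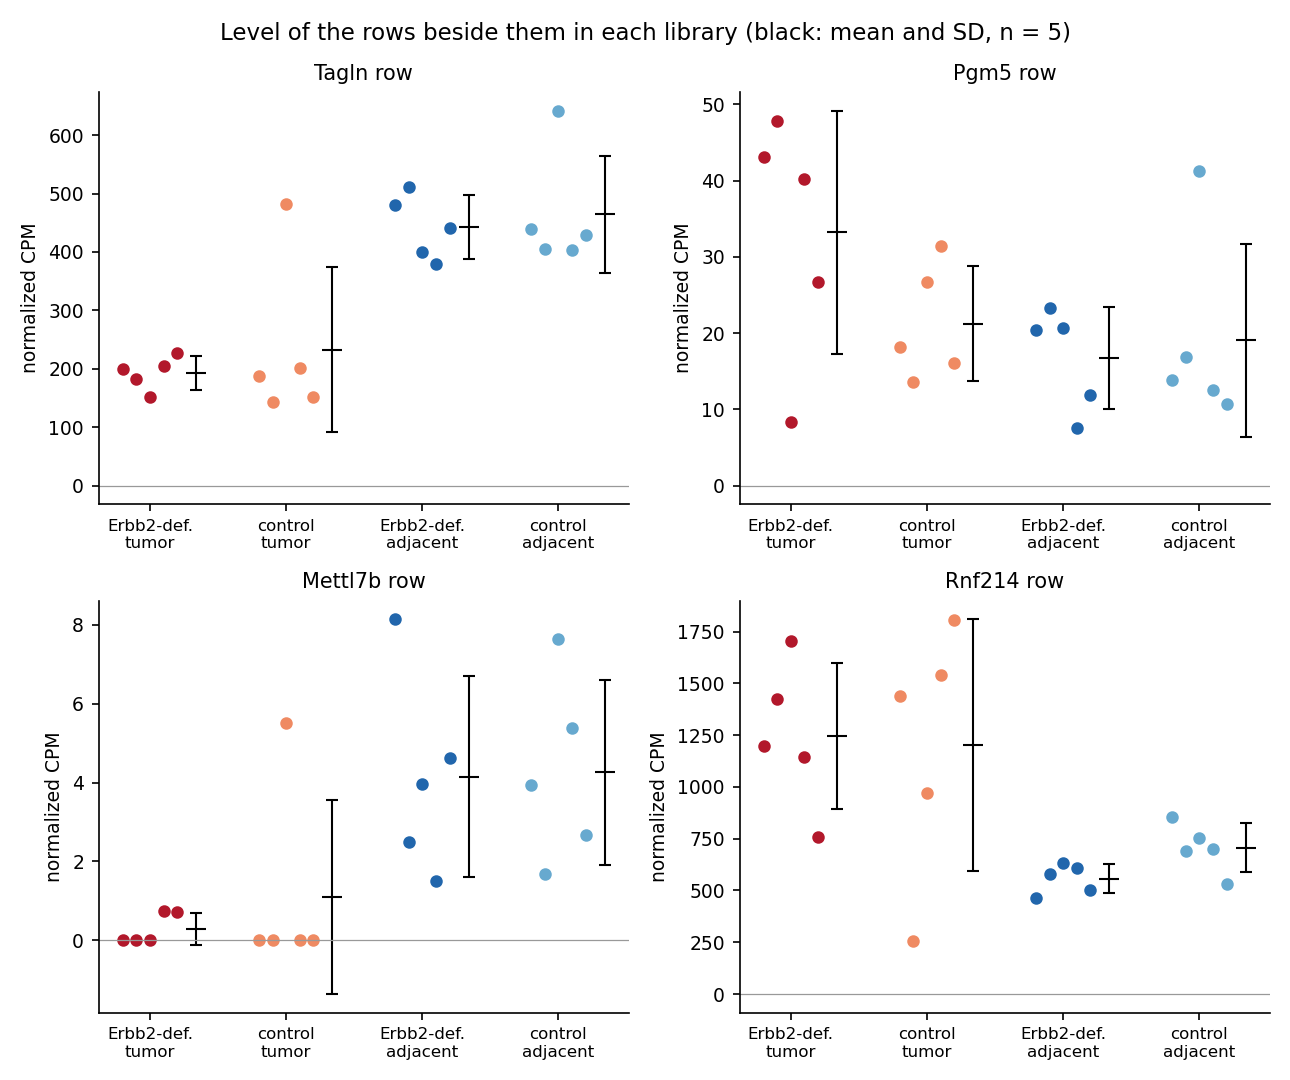
Normalized CPM of the Tagln, Pgm5, Mettl7b and Rnf214 rows in each of the 20 libraries by group on linear axes, with the mean and SD (n = 5) in black beside the points. Tagln and Mettl7b are lower in most tumors, and Pgm5 overlaps between tissues. Rnf214 is higher in most tumors, but its lowest library is control tumor 2 (254 CPM). Control tumor 3 is the highest control tumor for Tagln (482 CPM) and Mettl7b (5.52 CPM).

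Most tested rows of smooth muscle contractile genes were lower in tumors of both genotypes. Of 22 contractile genes listed, 18 were tested. In Erbb2-deficient mice 0 were called higher and 13 lower in tumors, in a contrast where 14.5% of all tested rows were called lower, with a median log2 difference of -2.61, where the median of all tested rows was -0.06. In control mice 0 were called higher and 16 lower, against 10.9% of all tested rows called lower, with a median of -3.66, where the median of all tested rows was 0.07. The list was chosen with earlier results known, and some rows, such as Actg2 and Des, passed the filter only through adjacent tissue. These counts are therefore a description. Mylk, the myosin light chain kinase, was called in neither genotype (-0.20 ± 0.44 SE in Erbb2-deficient mice and -0.69 ± 0.46 SE in control mice). Pdlim7, a PDZ and LIM domain protein that binds the cytoskeleton, was also called in neither and had fitted values above 0 (1.15 ± 0.65 SE in Erbb2-deficient mice and 0.22 ± 0.65 SE in control mice). The row of Smtn, which encodes the contractile protein smoothelin, averaged 8.40 CPM in Erbb2-deficient tumors and 439 CPM in Erbb2-deficient adjacent tissue, and 5.18 CPM in control tumors and 884 CPM in control adjacent tissue. The row of Myh11, the smooth muscle myosin heavy chain, averaged 3.41 CPM in Erbb2-deficient tumors and 112 CPM in Erbb2-deficient adjacent tissue, and 2.64 CPM in control tumors and 140 CPM in control adjacent tissue. The Pcsk7 and Tmem252 differences lie below the list's median in both genotypes. The Itga7 difference of -5.15 lies below the median of -2.61 in Erbb2-deficient mice, and that of -1.79 above the median of -3.66 in control mice. The Cavin1 differences lie above the median in both genotypes, as do the Tagln differences although Tagln is a member of the list.

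**Figure D3:**
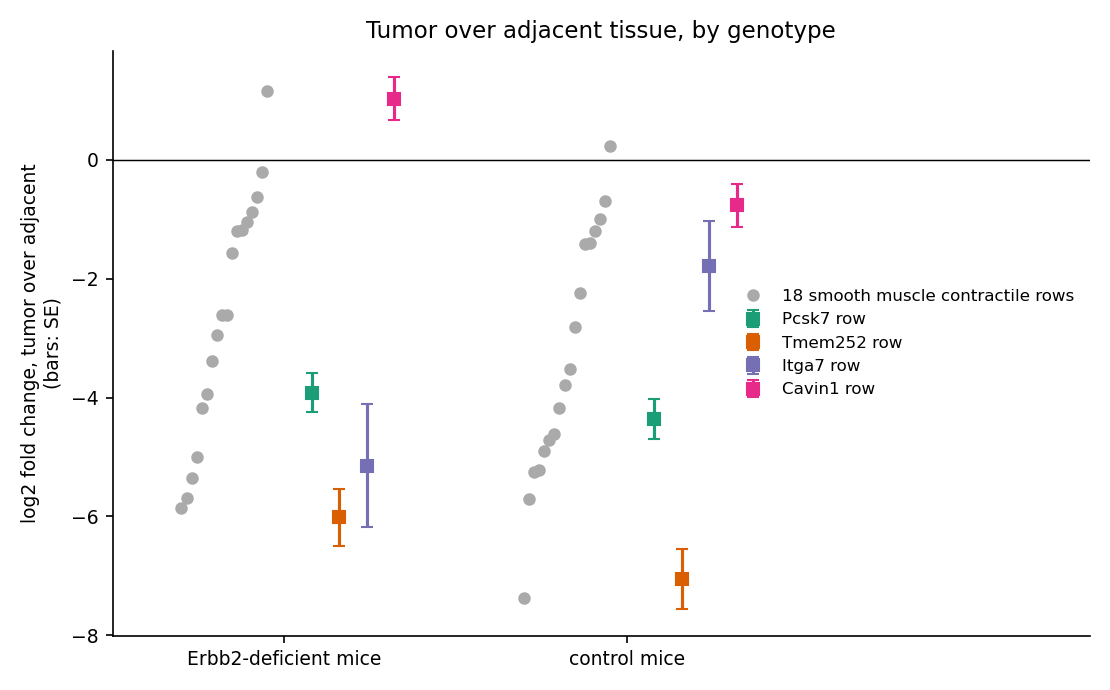
Fitted log2 fold change of tumors over adjacent tissue in Erbb2-deficient and control mice, with grey points for the 18 tested smooth muscle contractile rows in order of value and colored squares with SE bars for the Pcsk7, Tmem252, Itga7 and Cavin1 rows. Pcsk7 and Tmem252 lie in the lower part of the muscle rows in both genotypes, and Cavin1 lies at 1.03 and -0.77.

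The labels call the adjacent samples epithelium, and rows named for muscle and for epithelial markers were both counted there. If rows were counted on the opposite strand, these marker rows too would not hold their own transcripts. Their sums are therefore levels of rows and no measure of cell content. Summed over Acta2, Actg2, Myh11, Cnn1 and Des, smooth muscle rows reached 2.79 to 19.4 CPM in Erbb2-deficient tumors, 2.86 to 16.6 CPM in control tumors, 191 to 343 CPM in Erbb2-deficient adjacent tissue and 169 to 496 CPM in control adjacent tissue. All 5 marker rows had lower means in tumors of both genotypes, beside the lower levels of Pcsk7 and Tmem252 there, and their part in those levels was not tested. The marker rows passed the filter on low counts through their levels in adjacent tissue, so no test of them is read here. In bulk samples, fewer muscle cells and less RNA per cell cannot be told apart. Summed over 7 colon epithelium rows, levels were 205 to 522 CPM in Erbb2-deficient tumors, 16.3 to 767 CPM in control tumors, 432 to 808 CPM in Erbb2-deficient adjacent tissue and 276 to 817 CPM in control adjacent tissue. Control tumor 2 was the lowest, with Epcam, Krt8, Cdh1 and Muc2 at 0 counts, and control tumor 3 the highest of the tumors. Skeletal muscle rows (Acta1, Ckm, Myh4 and Mylpf) summed to 160.7 CPM in control tumor 2 and to at most 24.0 CPM in any adjacent library.

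Lists around the other members gave little. Of 18 genes of muscle adhesion plaques and laminin receptors other than Itga7, 6 were tested, and 1 was lower in Erbb2-deficient tumors and 0 in control tumors. The gene called was Vcl, which encodes the adhesion protein vinculin, at 65.4 CPM in Erbb2-deficient tumors and 117 CPM in Erbb2-deficient adjacent tissue (log2 difference -0.84 ± 0.29 SE, edgeR adjusted p = 0.0356). Of 9 caveola genes other than Cavin1, 0 passed the filter on low counts, so the Cavin1 row cannot be set beside Cav1 or the other cavins. Of 8 proprotein convertase genes other than Pcsk7, 4 were tested, 0 were called in Erbb2-deficient mice and 1, Pcsk4, was lower in control tumors (-1.65 ± 0.54 SE). The Pcsk4 row averaged 3.05 CPM in control tumors and 9.55 CPM in control adjacent tissue. It passed the filter on low counts mainly through adjacent tissue, so no test of it is read here. Furin, the best known convertase of the secretory pathway, averaged 43.4 CPM in Erbb2-deficient tumors and 42.0 CPM in Erbb2-deficient adjacent tissue, and 37.6 CPM in control tumors and 50.1 CPM in control adjacent tissue.

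The study asked what loss of Erbb2 in intestinal epithelium changes, and for these rows that question concerns genotype within a tissue. In adjacent tissue the mean of the Pcsk7 row was 24582 ± 6061 CPM for Erbb2-deficient mice and 49164 ± 10686 CPM for controls (SD, n = 5 each), a fold of 0.500 with a 95% interval of -1.59 to -0.41 on the log2 scale. That of the Tmem252 row was 953 ± 145 CPM for Erbb2-deficient mice and 1694 ± 422 CPM for controls, a fold of 0.563 with an interval of -1.57 to -0.09. Both were lower in 5 of 5 Erbb2-deficient libraries than in any control library. Among all tested rows 0.801% were lower without overlap of the groups and 0.73% higher.

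Neither difference passed the test across all rows. The log2 difference was -1.0 ± 0.30 SE for Pcsk7 (edgeR unadjusted p = 0.00309, adjusted p = 0.529) and -0.83 ± 0.38 SE for Tmem252 (edgeR unadjusted p = 0.0399, adjusted p = 0.827). In this contrast edgeR called 0 of 7119 rows (0.0%), with 418 at an unadjusted p under 0.05, and DESeq2 called 5, none of them a member. Over all alternatives the adjusted p ranged from 0.238 to 0.961 for Pcsk7 and from 0.270 to 1.0 for Tmem252. The Tagln row averaged 443 ± 54.9 CPM in adjacent tissue of Erbb2-deficient mice and 464 ± 100.5 CPM in that of controls (SD, n = 5 each), with a log2 difference of -0.07 ± 0.27 SE. The Pgm5 row averaged 16.7 ± 6.68 CPM in adjacent tissue of Erbb2-deficient mice and 19.0 ± 12.7 CPM in that of controls, with a log2 difference of -0.20 ± 0.45 SE.

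Of the 18 tested contractile rows, 14 had a fitted value below 0 in Erbb2-deficient against control adjacent tissue, with a median of -0.32 and 0 called, where 48.9% of all tested rows were fitted below 0. In tumors the same count was on the other side, with 14 of the 18 fitted above 0, a median of 0.43 and 0 called, where 49.1% of all tested rows were fitted above 0. Smtn was the row of smallest p, at 439 CPM for Erbb2-deficient mice and 884 CPM for controls (-1.01 ± 0.33 SE, edgeR adjusted p = 0.618). The summed smooth muscle markers had a median of 247 CPM for Erbb2-deficient mice and 350.2 CPM for controls, and their ranges overlapped. Rows named for markers of other cell types were summed in the same libraries, with the same limit on strand. Kit and Ano1, which mark the interstitial cells of Cajal that pace the muscle of the gut, summed to 11.6 to 25.0 CPM for Erbb2-deficient mice and 3.82 to 8.90 CPM for controls. Kit did not pass the filter on low counts, and most of the sum was Ano1, a chloride channel. The Ano1 row averaged 14.9 CPM for Erbb2-deficient mice and 6.03 CPM for controls, with a log2 difference of 1.30 ± 0.44 SE. In tumors it averaged 6.01 CPM for Erbb2-deficient mice and 2.23 CPM for controls, with a log2 difference of 1.39 ± 0.52 SE. The Ano1 row passed the filter mainly through Erbb2-deficient adjacent tissue, where it was highest, so both differences are given without a test. The 7 colon epithelium rows had a median sum of 657 CPM for Erbb2-deficient mice and 350.6 CPM for controls, with overlapping ranges. The part of the muscle, Cajal and epithelial rows in the lower Pcsk7 and Tmem252 levels was not tested.

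The Itga7 row averaged 24.1 ± 12.7 CPM in adjacent tissue of Erbb2-deficient mice and 28.9 ± 16.9 CPM in that of controls (SD, n = 5 each). Its log2 difference of -0.26 ± 0.71 SE had an interval of -1.65 to 1.12 (edgeR adjusted p = 0.993), which holds changes of more than 2-fold in either direction. The Cavin1 row averaged 8.50 ± 4.37 CPM in adjacent tissue of Erbb2-deficient mice and 17.0 ± 6.42 CPM in that of controls, a log2 difference of -1.0 ± 0.36 SE. Because its interaction was used to pick it, the genotype differences of Cavin1 are given without a test.

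In tumors 0 of the 4 rows were called between genotypes, as were 0 of all 7119 rows (0.0%), with 817 at an unadjusted p under 0.05 in edgeR and 26 called by DESeq2, none of them a member. Pcsk7 averaged 1628 ± 849 CPM in tumors of Erbb2-deficient mice and 2391 ± 633 CPM in those of controls (SD, n = 5 each), with a log2 difference of -0.55 ± 0.30 SE (edgeR adjusted p = 0.500). That difference was -0.85 without Erbb2-deficient tumor 2 (edgeR unadjusted p = 0.00643, adjusted p = 0.373) and -0.34 when tumor 3 of that genotype was left out (edgeR adjusted p = 0.733). Tmem252 averaged 14.7 ± 7.89 CPM in tumors of Erbb2-deficient mice and 12.6 ± 9.83 CPM in those of controls, and its difference of 0.21 ± 0.44 SE (edgeR adjusted p = 0.911) had an interval of -0.64 to 1.07. The sign of that value turned when Erbb2-deficient tumor 2 or control tumor 2 was left out, and it was 0.73 without control tumor 3. Itga7 averaged 0.577 ± 0.603 CPM in tumors of Erbb2-deficient mice and 8.46 ± 14.9 CPM in those of controls. The log2 difference was -3.63 ± 1.09 SE. Control tumor 3 decided its size, and without that library the difference was -1.50 ± 0.96 SE. With tumors alone the Itga7 row did not pass the filter on low counts, so this difference is given without a test. Cavin1 averaged 17.3 ± 5.04 CPM in tumors of Erbb2-deficient mice and 9.95 ± 2.58 CPM in those of controls, a log2 difference of 0.79 ± 0.36 SE. Erbb2-deficient and control tumors overlapped for each of the 4 rows, in a contrast where 0.927% of all tested rows were higher and 1.19% lower without overlap.

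**Figure D4:**
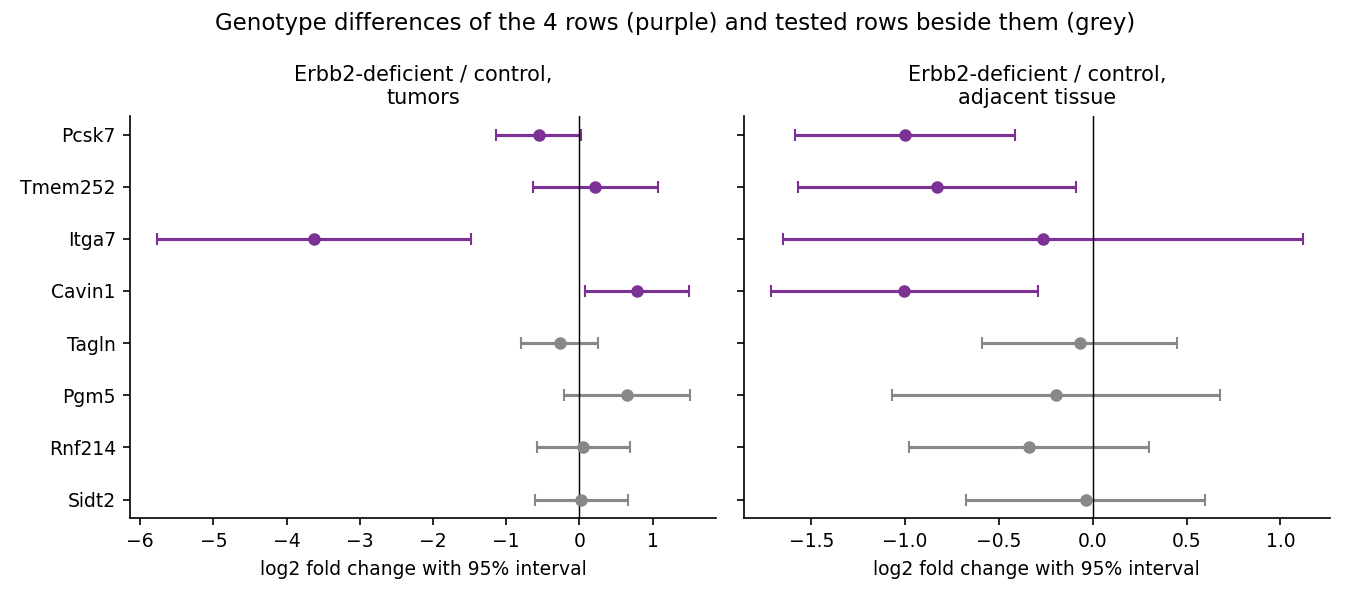
Fitted log2 fold change of Erbb2-deficient over control libraries in tumors (left) and adjacent tissue (right), with bars for the 95% interval, for the Pcsk7, Tmem252, Itga7 and Cavin1 rows (purple) and the tested rows beside them (grey); the panels have different horizontal scales. In adjacent tissue Pcsk7 (-1.0) and Tmem252 (-0.83) lie left of 0 and Tagln (-0.07) and Pgm5 (-0.20) near it. The Cavin1 bars in both panels and the Itga7 bar in tumors are not read as tests. Cavin1 was picked by its interaction, and Itga7 did not pass the filter on low counts with tumors alone.

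The difference between the genotype effects in tumors and in adjacent tissue was 0.45 ± 0.42 SE for Pcsk7, 1.04 ± 0.58 SE for Tmem252 and -3.36 ± 1.31 SE for Itga7 on the log2 scale. For Cavin1, picked by this quantity, it was 1.79 ± 0.51 SE, made up of a higher mean in Erbb2-deficient tumors and a lower mean in Erbb2-deficient adjacent tissue. The differences between tissues that chose the rows enter these values, so they are given without a test. The Itga7 value was -1.22 without control tumor 3 (range -3.90 to -1.22 over single libraries left out), and the Tmem252 value was 1.58 without that library. The Pcsk7 value was 0.17 when Erbb2-deficient tumor 2 was left out and 0.69 when tumor 3 of that genotype was, while that of Cavin1 ranged from 1.61 to 2.07. Across all tested rows 0 were called for this interaction (0.0%), with 290 at an unadjusted p under 0.05 in edgeR and 0 by DESeq2. Counts of 6 to 31 per library limit the precision of every Cavin1 value.

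Over all 20 libraries the rows most like Pcsk7 in log2 CPM were A930016O22Rik (Pearson r = 0.97), Myh11 (r = 0.97), Tmem252 (r = 0.96), Gm38581 (r = 0.96) and Gpr17 (r = 0.96). The rows most like Tmem252 were Gm38581 (r = 0.99), Gm15816 (r = 0.98), Smtn (r = 0.98), Myh11 (r = 0.98) and A930016O22Rik (r = 0.97). Rows most like Itga7 were Gm51679 (r = 0.92), Abi1 (r = 0.92), Gm34255 (r = 0.91), Tagln (r = 0.91) and Gm12830 (r = 0.91). For Cavin1 the most like rows were Smg6 (r = 0.74), Zfp651 (r = 0.74), Gm51860 (r = 0.73), Rrp8 (r = 0.72) and 0610038B21Rik (r = 0.72). The 20 libraries share 2 tissues and 2 genotypes, so rows with large tissue differences in the same direction have a high r. Tagln stood among the rows most like Itga7 and not among those most like Pcsk7, the row it lies opposite.

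Against the 18 contractile rows the median r was 0.900 for Pcsk7, 0.895 for Tmem252, 0.718 for Itga7 and 0.0617 for Cavin1. Against 7 colon epithelium rows it was 0.368, 0.459, 0.422 and 0.00683 in the same order, and against all other tested rows at most 0.0189. When each library was taken as its deviation from its group mean, these medians with contractile rows became 0.348 for Pcsk7, 0.275 for Tmem252, 0.0362 for Itga7 and 0.335 for Cavin1. With the epithelium rows they were 0.360, 0.372, 0.466 and 0.195. By this median, within groups, the Pcsk7 and Tmem252 rows were no closer to the muscle rows than to the epithelial rows. Single contractile rows ranged from r = -0.288 to 0.663 for Pcsk7 and from -0.277 to 0.717 for Tmem252. Epithelium rows ranged from 0.146 to 0.584 and from 0.201 to 0.628. Tumor means reached only 1.19 CPM for Actg2, 1.92 CPM for Des and 1.10 CPM for the epithelium row Car4. Deviations at such levels rest on few counts, and the limit on strand holds here too. The medians therefore cannot show which cells the Pcsk7 and Tmem252 rows follow. The rows of highest r in deviations were Fuca1 for Pcsk7 (r = 0.76), Fam219b for Itga7 (r = 0.85) and Nt5c3b for Cavin1 (r = 0.83).

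Of 9 relations between deviations of paired rows, 0 passed after Benjamini-Hochberg adjustment. For Pcsk7 and Tmem252 Pearson's r was 0.484 (n = 20, permutation p = 0.0782, adjusted 0.192) and Spearman's rho 0.532 (permutation p = 0.0422, adjusted 0.126). Without Erbb2-deficient tumor 3 and control tumor 2, the libraries farthest from the median of Pcsk7, r was 0.650. It was 0.425 within the 10 tumors and 0.922 within the 10 adjacent libraries, where both rows were high in the same libraries of each genotype.

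For Pcsk7 and Tagln r was 0.152 (n = 20, permutation p = 0.499, adjusted 0.641) and rho 0.0421 (permutation p = 0.865, adjusted 0.879), with r = 0.347 within tumors, -0.735 within adjacent tissue and -0.180 without the same libraries. For Tmem252 and Pgm5 r was 0.083 (permutation p = 0.757, adjusted 0.851) and rho 0.173 (permutation p = 0.506, adjusted 0.651), with r = 0.241 within tumors and -0.455 within adjacent tissue. Neither pair thus showed detected shared variation within groups at n = 20. If rows were counted on the opposite strand, the Tagln and Pgm5 rows would not hold their own transcripts. These relations therefore cannot show which gene the Pcsk7 or Tmem252 row reports.

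For Itga7 and Mettl7b r was 0.671 (n = 20, permutation p = 0.0311, adjusted 0.192) and rho 0.455 (permutation p = 0.065, adjusted 0.146). It rested on control tumor 3, without which r was 0.397, and r was 0.893 within tumors and 0.241 within adjacent tissue. Without control tumors 2 and 3, the libraries farthest from the median of Itga7, r was 0.358. The other 5 relations, all among the 4 rows, had r between -0.345 and 0.390. The smallest p among them was for Tmem252 and Cavin1, with a rho of 0.507 (n = 20, permutation p = 0.00791, adjusted 0.0712).

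**Figure D5:**
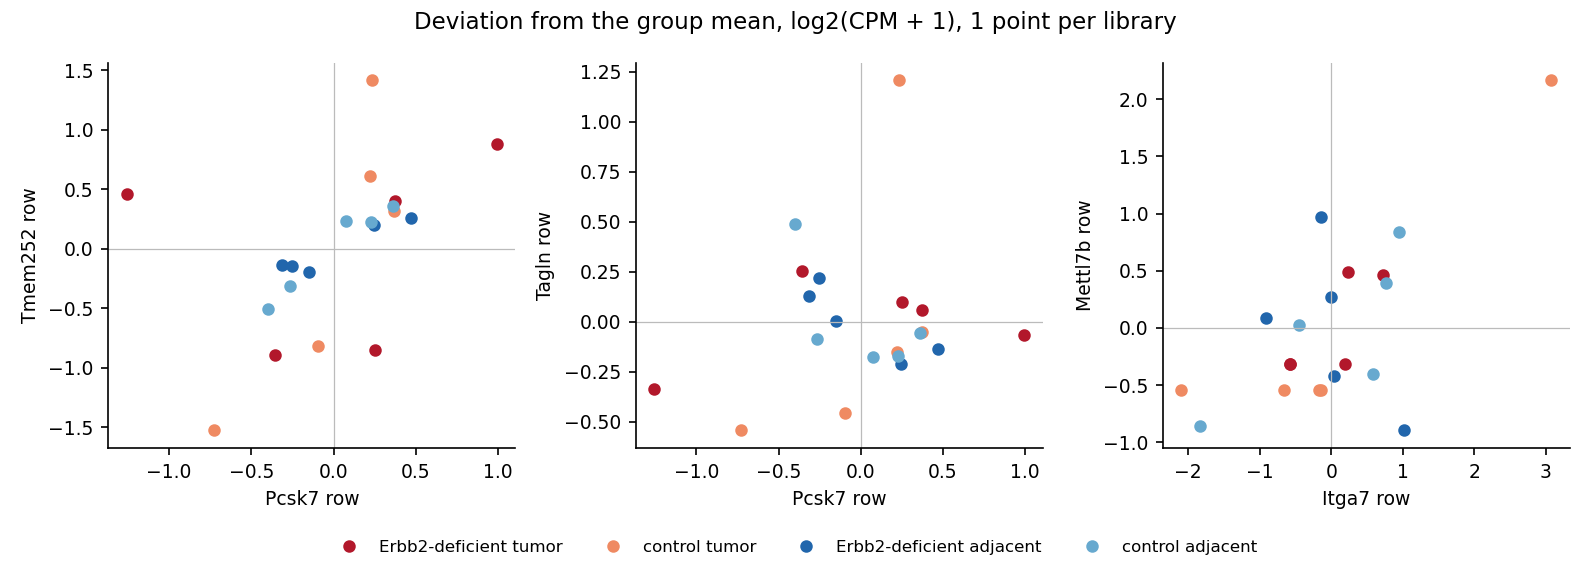
Deviation of each library from the mean of its group in log2(CPM + 1) for the Pcsk7 and Tmem252 rows (left), the Pcsk7 and Tagln rows (middle) and the Itga7 and Mettl7b rows (right), with 1 point per library colored by group. Adjacent libraries run along a rising line on the left (r = 0.922) and a falling one in the middle (r = -0.735), and control tumor 3 stands alone at the upper right of the right panel.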

How the data were processed

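RNA-seq libraries of 20 samples, 5 in each group of genotype and tissue as the labels give them, were made with a stranded mRNA kit, per the labels' protocols. The authors deposited unnormalized read counts per gene symbol for each library. The submitters' processing notes name build mm39, HTSeq 2.0.2, HISAT2 2.2.1, DESeq2 and Trimmomatic, with no role or setting for each, so that strand counting is not given in the sources used here. Counts on the wrong strand would shift reads between a row and its opposite gene. The 5 summary rows that name no gene (reads on no feature, 78.6% to 85.1%, and others) were left out.

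Rows were filtered with filterByExpr (minimum count 10, 7119 rows kept), scaled with TMM factors and fitted in edgeR (4.0.16, under R 4.3.3; DESeq2 1.42.0 was the alternative) as a means model of 4 groups over all 20 libraries. Quasi-likelihood F tests with robust dispersion gave p-values adjusted by Benjamini-Hochberg over all tested rows, at 0.05. The standard error is the log2 fold change divided by the square root of F, and intervals are 1.96 SE wide on each side (95%). Likeness used log2 CPM with a prior count of 2. Deviations used log2(CPM + 1), with 100000 permutations of libraries within groups and two-sided p-values. The fitting step was tested on simulated data.

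The 4 rows and the gene lists were chosen with earlier results of these data known. The text names the 4 rows, every row whose gene lies within 10000 bases, the 5 rows of highest r per row (in deviations only the first, and for Tmem252 it is not reported here), and up to 4 tested members of smallest p in a list. Counts per library limit precision: they give counting error of whole reads, not of separate molecules.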

Additional observations from a re-analysis of the deposited data

Results flagged for a closer look

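In groups of 5, a library was singled out when its gap to the nearest other library, divided by the range of the group, exceeded Dixon's critical value of 0.71. Chance singles out about 1 in 20 groups, and 36 combinations of row and group were looked at. The Itga7 row stood at 35.0 CPM in control tumor 3, where the next control tumor had 2.86 CPM. The Mettl7b row, opposite Itga7, stood at 5.52 CPM in the same library, where the other 4 control tumors were at 0 counts. The Tagln row stood at 482 CPM in control tumor 3, where the next control tumor had 201 CPM. Control tumor 3 also had the highest sum of colon epithelium markers among tumors (767 CPM), and its smooth muscle markers summed to 16.6 CPM; the part of its cell content in these values was not tested. In control adjacent library 3, the Tagln row stood at 642 CPM (next 439 CPM) and the Pgm5 row at 41.3 CPM (next 16.8 CPM), while the Pcsk7 and Tmem252 rows had their lowest control adjacent values there.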

How the results depend on the processing

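Each result was recomputed with DESeq2 size factors, with library totals and no TMM factor, without a filter on low counts, with DESeq2, with the compared groups alone, without each library in turn, without control tumors 2 and 3, and with a replicate block. The log2 differences of Pcsk7 and Cavin1 kept their direction and their side of the threshold, or moved by less than the spread between libraries where no test was made, in every one of these. The genotype difference of Tmem252 in tumors turned to -0.049 without Erbb2-deficient tumor 2 and -0.033 without control tumor 2 (range -0.049 to 0.73 over single libraries left out). The genotype difference of Itga7 in adjacent tissue was 0.14 with the replicate block. Its tissue difference in control mice was -3.88 without control tumor 3 and -3.52 without control tumors 2 and 3 (range -3.88 to -1.48), and its genotype difference in tumors ranged from -4.19 to -1.50. With the compared groups alone Itga7 did not pass the filter in tumors, and no such fit was made for the interaction.

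Counts of rows called by genotype in tumors were 0, and 26 with DESeq2. In adjacent tissue they were 0, 1 without the filter, 5 with DESeq2 and 1 without control tumors 2 and 3, with a range of 0 to 2 over single libraries left out (2 without control tumor 2). Rows called between tissues in Erbb2-deficient mice numbered 1959 (range 1573 to 2719), and 2939 without control tumors 2 and 3. In control mice they numbered 1540 (range 1188 to 2127), 593 with the compared groups alone and 2544 without control tumors 2 and 3. The cause of these changes was not tested. Without TMM factors the calls were 1233 higher and 756 lower in Erbb2-deficient tumors, against 929 and 1030 with them, and 945 higher and 637 lower in control tumors, against 764 and 776, while the median of all rows shifted by 0.10 to 0.19 on the log2 scale in the genotype and tissue contrasts. No direction of the 4 rows turned with scaling.

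Equal replicate numbers were not taken as pairs, since they did not correlate positively in every pair, and these values do not settle whether they pair. Deviations of equal numbers correlated at -0.02 to 0.23 between Erbb2-deficient tumors and adjacent tissue, -0.12 to 0.37 between control tumors and adjacent tissue, -0.26 to 0.04 between tumors of the genotypes and -0.19 to 0.43 between adjacent tissue of the genotypes. A library correlated best with its own number in 1, 3, 0 and 2 of 5 pairs. With the replicate block 0 rows were called by genotype in either tissue or for the interaction, 1989 between tissues in Erbb2-deficient mice and 1428 in control mice. Low counts limit Itga7 (0 to 38 per tumor), Tmem252 (3 to 33 per tumor) and Cavin1 (6 to 31 per library).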
